A study of Mus musculus with 16 samples.

Results

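The comparison described here is that of Lyz2_cre+/_GPR132fl/fl mice (CKO) with GPR132fl/fl mice (fl/fl) in liver, both treated with the antagonist NOX_6_18. Its members were chosen by title, as the 2 liver libraries of CKO mice on NOX_6_18 and the 2 of fl/fl mice on NOX_6_18, which make 4 of the 16 libraries in the series. All of these mice were C57BL/6, were fed a diet labelled HFD and carried floxed Gpr132, and their ages are not given in the labels used here. In CKO mice Cre recombinase is produced from Lyz2, a gene of myeloid cells, so that recombination is directed to macrophages, monocytes and neutrophils and not to hepatocytes. The fl/fl mice carry the same floxed alleles without Cre, and both groups received the antagonist, so neither is an untreated or a wild-type control. RNA-seq was made from RNA described as that of liver macrophages, although the extraction protocol speaks of tissue put into liquid nitrogen. The other liver groups, CKO and fl/fl on vehicle with 2 libraries each, enter below only as a second comparison of the genotypes. The series also holds WAT libraries, which were not used. The question is which transcripts still differ by genotype when both genotypes have received the antagonist of the deleted receptor.

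GPR132 is a G protein-coupled receptor of myeloid cells and lymphocytes. It belongs to the family of proton-sensing receptors and responds to oxidized free fatty acids such as those made from linoleic acid. The liver holds Kupffer cells, its resident macrophages, which clear particles and old erythrocytes from the sinusoids, and on a high-fat diet it also gains macrophages derived from blood monocytes. An antagonist acting through this receptor alone would meet its target in fl/fl macrophages, whereas CKO macrophages would lack it.

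The deposited counts came to between 46628459 and 59358674 per library for these 4 libraries, of which 43.1 to 44.5% fell on mitochondrially encoded genes. A gene with 0 counts in 1 of them lay below a floor of 3 counts, which is 0.0499 to 0.0655 CPM (counts over the library total, corrected for library composition); this floor covers counting error only. Macrophage and Kupffer cell markers were present at length-corrected levels (TPM, scaled for transcript length and library size) of 48.1 to 50.1 TPM for Adgre1 (F4/80), 296 to 315 for Clec4f and 272 to 290 for Lyz2. So were genes of other cells, with 977 to 1030 TPM for Alb of hepatocytes, 273 to 313 for Stab2 of sinusoidal endothelium and 2110 to 2420 for Hba-a1 of erythrocytes. The RNA is therefore that of mixed liver cells by its markers, and a gene that differs cannot be assigned to a cell type here. In such bulk RNA, fewer cells of a type and less of a transcript per cell cannot be told apart. Of the 8 liver libraries, the 2 of fl/fl mice on vehicle stood apart, at 58.6 and 77.3 on the first principal component (25% of the variance) against −26 to −19.8 for the other 6. They are not among the 4 libraries compared but share the estimate of spread, so the main count is also given without them. The labels do not state whether replicate libraries are from different mice, and the tests below therefore speak of library-to-library spread, part of which may be technical.

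On NOX_6_18 the liver libraries of the 2 genotypes differed in 7 genes. Sema6a, Vsir, Nadk and Krcc1 were among those higher in CKO, by between 1.74-fold and 2.94-fold, and Igfbp4 and Rnf13 were lower, with folds of 0.606 and 0.508. These 7 are 0.0359% of the 19515 genes tested (edgeR quasi-likelihood test, Benjamini-Hochberg adjusted p under 0.05); the 5 higher are 0.0256% and the 2 lower 0.0102%. At an unadjusted p under 0.05 there were 864 genes, or 4.43%. The number called was 42 with DESeq2, 12 with the fl/fl vehicle libraries left out of the fit, and 13, 19, 19 and 22 with fl/fl replicate 1, fl/fl replicate 2, CKO replicate 1 and CKO replicate 2 left out. On vehicle, in libraries that share none with this comparison, the same test called 1131 genes (5.8%). The difference between the genotype differences passed the test for 478 genes (2.45%).

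**Figure D1:**
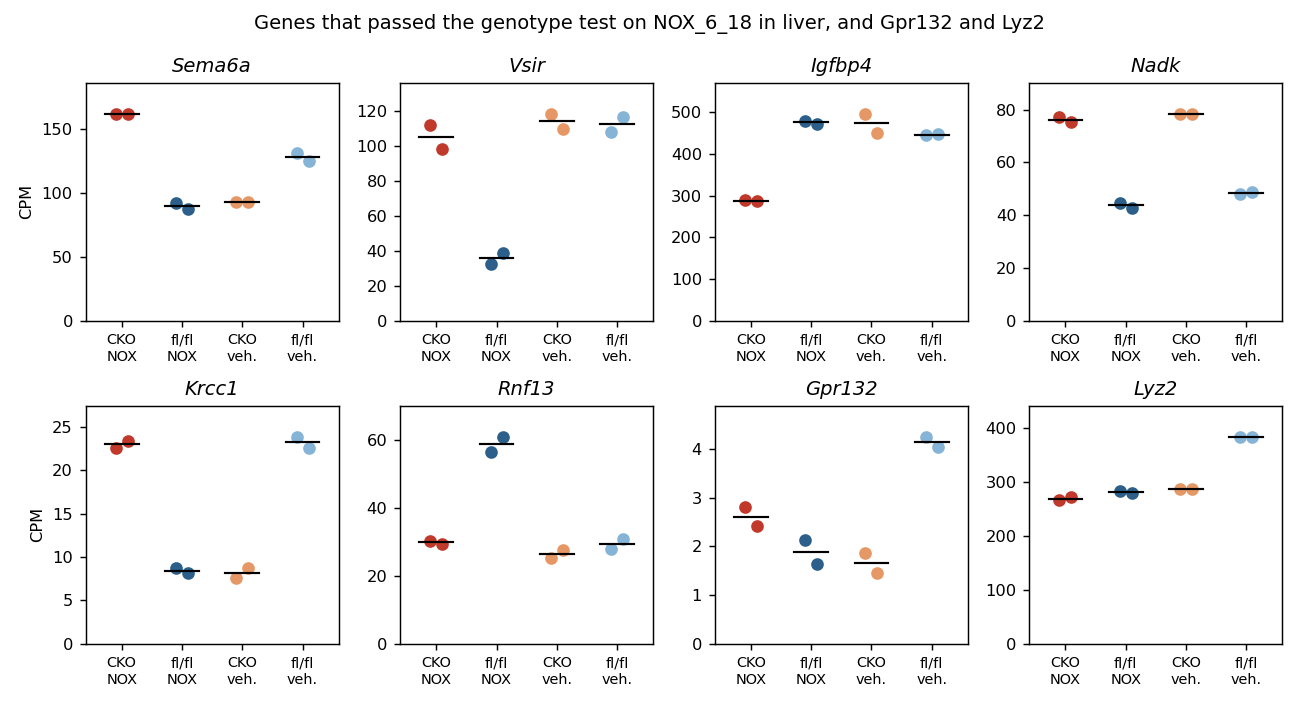
CPM (vertical axes, from 0) in each of the 8 liver libraries for 6 of the genes that passed the genotype test on NOX_6_18 and for Gpr132 and Lyz2. Points are libraries and bars are means of 2 libraries. The CKO and fl/fl libraries on NOX_6_18 are separated in all 8 panels, as they were for 32.9% of all genes tested. The 6 genes were chosen because they passed the test, and Gpr132 and Lyz2 did not pass it.

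Gpr132 itself, the targeted gene, was low in all 8 liver libraries, and on NOX_6_18 it was not lower in CKO. It stood at 2.81 and 2.41 CPM in CKO and at 2.13 and 1.64 CPM in fl/fl on NOX_6_18. Both CKO libraries lay above both fl/fl libraries, against the direction of a deletion. The log2 fold change was 0.47 ± 0.24 (SE), with a 95% interval of −0.09 to 1.02, and it did not pass the test (edgeR adjusted p = 1). On vehicle the values were 1.86 and 1.46 CPM in CKO against 4.26 and 4.04 CPM in fl/fl, where the CKO libraries were the lower ones (log2 fold change −1.32 ± 0.24, edgeR adjusted p = 0.0162). The counts cover the whole gene at chr12:112850873-112868228 (GRCm38, minus strand), and which exons are floxed is not given in the sources used here, so on NOX_6_18 the counts do not check the label. Of the other proton-sensing receptors, Gpr4 had 27.2 and 22.0 CPM in CKO against 23.8 and 21.1 in fl/fl, and Gpr65 had 11.1 and 12.4 against 11.3 and 11.2. The groups overlapped for both, and neither passed the test. Lyz2, whose locus drives the Cre, had 267 and 271 CPM in CKO against 283 and 280 in fl/fl (log2 fold change −0.06 ± 0.04, edgeR adjusted p = 1).

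3 of the called genes had 1 of the 4 liver groups apart from the other 3, and their promoters are shown so that the start of each gene can be read beside its values. The sequences are from RefSeq (GRCm38.p6), plus strand, 250 bases before to 50 bases after the start. Capitals mark matches on either strand to 4 motifs, which were searched in all 32851 promoters of this length. The TATA box, searched as TATAAA, was in 13.6% of them. The GC box, searched as GGGCGG, was in 35.7%. The CAAT box, searched as CCAAT, was in 37.4%, and the E-box, searched as CACGTG, in 7.15%. Vsir is at chr10:60346601-60346900, Igfbp4 at chr11:99040994-99041293 and Rnf13 at chr3:57735807-57736106. Of the 7 called genes, 5 had an entry in the promoter table.
Vsir: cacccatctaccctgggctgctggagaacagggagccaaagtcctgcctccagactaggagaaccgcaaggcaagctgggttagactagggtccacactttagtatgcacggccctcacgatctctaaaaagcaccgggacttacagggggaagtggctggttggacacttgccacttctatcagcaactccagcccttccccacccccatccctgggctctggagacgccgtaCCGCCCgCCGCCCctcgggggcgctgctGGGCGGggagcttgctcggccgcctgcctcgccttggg
Igfbp4: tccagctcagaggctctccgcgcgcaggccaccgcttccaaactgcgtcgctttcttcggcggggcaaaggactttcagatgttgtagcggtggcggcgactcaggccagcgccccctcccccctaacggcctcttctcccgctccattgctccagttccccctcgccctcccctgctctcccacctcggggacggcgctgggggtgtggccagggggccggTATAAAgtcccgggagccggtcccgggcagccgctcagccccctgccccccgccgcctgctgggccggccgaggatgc
Rnf13: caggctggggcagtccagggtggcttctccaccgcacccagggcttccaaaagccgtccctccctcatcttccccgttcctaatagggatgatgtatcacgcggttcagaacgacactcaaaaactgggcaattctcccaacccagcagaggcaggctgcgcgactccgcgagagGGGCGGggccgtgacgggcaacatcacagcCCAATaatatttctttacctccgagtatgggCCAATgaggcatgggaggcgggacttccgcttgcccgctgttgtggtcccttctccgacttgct
In these windows Vsir had 3 GC boxes, Igfbp4 had 1 TATA box, and Rnf13 had 1 GC box and 2 CAAT boxes. Their GC content was 63.7%, 71.3% and 59.7%, against a median of 52.7% over all promoters. Vsir and Rnf13 both had a GC box, but none of the 4 motifs searched was in all 3 windows. A match describes the letters only.

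Vsir encodes VISTA, an inhibitory immune checkpoint protein on myeloid cells and T cells, and had the largest fold among the called genes. Its level was 112 and 98.3 CPM in CKO against 32.6 and 39.1 CPM in fl/fl on NOX_6_18. On vehicle it was 119 and 110 CPM in CKO against 108 and 117 CPM in fl/fl. The fl/fl libraries on NOX_6_18 were thus low and all other liver libraries lay close together above them. The genotype difference on NOX_6_18 was 1.56 ± 0.10 on the log2 scale, 2.94-fold, with an edgeR adjusted p of 0.00251. On vehicle it was 0.02 ± 0.10 (edgeR adjusted p = 0.956), and the 2 differences differed by 1.54 ± 0.15 (edgeR adjusted p = 0.00111). The gene spans chr10:60346851-60372684 (plus strand).

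Igfbp4, a secreted protein that binds insulin-like growth factors, showed the CKO libraries on NOX_6_18 apart from the rest. It had 289 and 287 CPM in CKO against 480 and 471 CPM in fl/fl on NOX_6_18. The vehicle libraries stood at 496 and 450 CPM in CKO and at 444 and 448 CPM in fl/fl. Here the CKO libraries on NOX_6_18 were low and the groups did not overlap. The genotype difference was −0.72 ± 0.05 on NOX_6_18 (fold 0.606, edgeR adjusted p = 0.00251) and 0.08 ± 0.05 on vehicle (edgeR adjusted p = 0.442). The difference between them was −0.81 ± 0.07 (edgeR adjusted p = 0.000777). Igfbp4 lies at chr11:99041244-99054392 (plus strand).

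Igfbp4 was the 1 member of 13 measured genes of the insulin-like growth factor list to pass the test on NOX_6_18. The growth factor gene Igf1 had 54.4 and 54.4 CPM in CKO against 57.9 and 54.3 in fl/fl, and its receptor gene Igf1r had 39.2 and 37.7 against 44.4 and 40.3 (edgeR adjusted p = 1 for both). Among the binding proteins, Igfbp7 had 755 and 805 CPM in CKO against 692 and 724 in fl/fl, and Igfbp5 had 267 and 256 against 262 and 237. The groups overlapped for Igf1 and Igfbp5, the CKO libraries lay above for Igfbp7 and below for Igf1r, and none of these passed. Igfbp2 and Igfbp3 had 16.4 and 13.3 CPM and 19.3 and 20.3 CPM in CKO, against 12.9 and 15.04 CPM and 19.8 and 20.7 CPM in fl/fl. On vehicle both were higher in CKO, by 1.18 and 0.67 on the log2 scale (edgeR adjusted p = 0.00241 and 0.0156).

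Rnf13, a membrane-anchored ubiquitin ligase of endosomes and lysosomes, was high in fl/fl on NOX_6_18. CPM values were 30.4 and 29.3 in CKO against 56.6 and 61.0 in fl/fl on NOX_6_18, and 25.2 and 27.5 in CKO against 27.8 and 30.9 in fl/fl on vehicle. The 2 fl/fl libraries on NOX_6_18 exceeded every other liver library. Rnf13 fell in CKO by 0.98 ± 0.09 on the log2 scale on NOX_6_18 (edgeR adjusted p = 0.00716), against a difference of −0.15 ± 0.09 on vehicle (edgeR adjusted p = 0.418). The difference between differences was −0.83 ± 0.12 (edgeR adjusted p = 0.0108). Its exons at chr3:57736062-57835233 (plus strand) overlap those of Gm17951, so reads could be shared between them.

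Sema6a and Krcc1 were higher in CKO on NOX_6_18 and lower in CKO on vehicle, and both differences passed the test for each of them. Sema6a, a transmembrane semaphorin that binds plexin receptors, had 162 CPM in both CKO libraries against 91.9 and 87.4 CPM in fl/fl on NOX_6_18. On vehicle it had 92.7 and 93.0 CPM in CKO against 131 and 125 CPM in fl/fl. CKO on NOX_6_18 was the highest group, fl/fl on vehicle came next, and the other groups lay together below both. The log2 fold change was 0.85 ± 0.05 on NOX_6_18 (edgeR adjusted p = 0.00251) and −0.46 ± 0.05 on vehicle (edgeR adjusted p = 0.00154), and the 2 differed by 1.31 ± 0.08 (edgeR adjusted p = 9.98e-05).

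Krcc1, which encodes a lysine-rich coiled-coil protein, had 22.6 and 23.4 CPM in CKO against 8.71 and 8.14 CPM in fl/fl on NOX_6_18. On vehicle the order was turned round, with 7.64 and 8.76 CPM in CKO against 23.9 and 22.6 CPM in fl/fl. The 8 values formed 2 levels, a high one for CKO on NOX_6_18 and fl/fl on vehicle and a low one for the remaining groups. Its log2 fold change was 1.45 ± 0.11 on NOX_6_18 (2.73-fold, edgeR adjusted p = 0.00345) and −1.50 ± 0.11 on vehicle (edgeR adjusted p = 0.000134). The difference between them, 2.95 ± 0.16, was the largest among the called genes (edgeR adjusted p = 7.62e-05). Krcc1 lies at chr6:71271677-71285319 (plus strand), and its exons overlap Mir8112.

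Nadk, the cytosolic kinase that makes NADP+ from NAD+, was the called gene whose genotype difference had the same direction and passed the test on both treatments. It had 77.0 and 75.4 CPM in CKO against 44.7 and 42.9 CPM in fl/fl on NOX_6_18. On vehicle it had 78.2 and 78.5 CPM in CKO against 48.2 and 48.9 CPM in fl/fl. All 4 CKO libraries were high, all 4 fl/fl libraries were low, and the genotypes did not overlap on either treatment. The log2 fold change was 0.80 ± 0.06 on NOX_6_18 (1.74-fold, edgeR adjusted p = 0.0027) and 0.69 ± 0.06 on vehicle (edgeR adjusted p = 0.000275). The difference between the 2 was 0.11 ± 0.08 (edgeR adjusted p = 0.64). Nadk spans chr4:155562378-155591001 (plus strand).

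**Figure D2:**
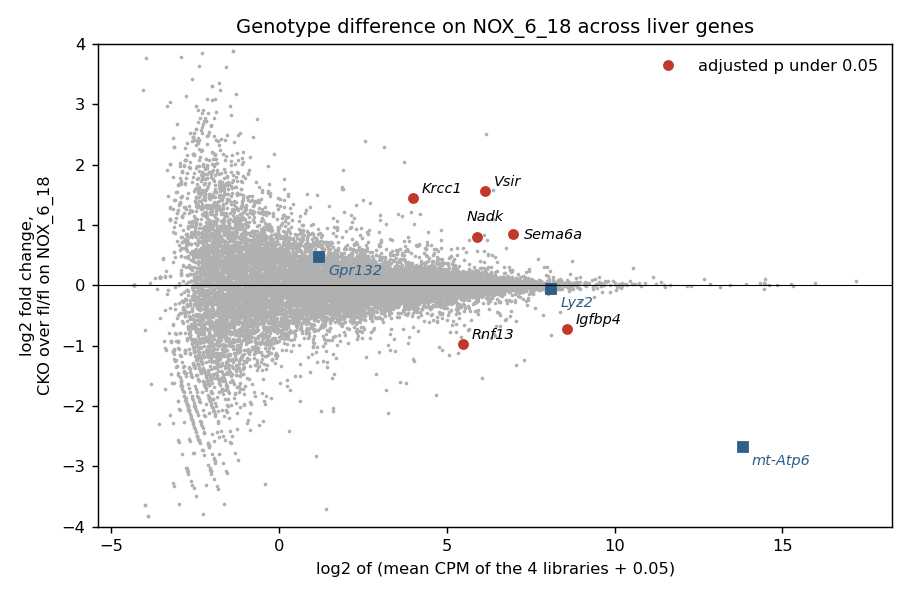
Log2 fold change of CKO over fl/fl on NOX_6_18 (vertical axis) against the log2 of the mean CPM of the 4 libraries plus 0.05 (horizontal axis), 1 point per gene. Red points are 6 of the genes that passed the test and blue squares are Gpr132, Lyz2 and mt-Atp6, which did not; 257 genes beyond ±4 are not drawn and 19258 are shown.

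The size of the differences over all genes was small where genes were well measured. Over the 10230 genes with a mean of at least 5 CPM the median absolute log2 fold change was 0.0759 and the median SE was 0.117, against 0.147 and 0.21 over all 19515 genes tested. The 2 groups did not overlap for 6411 genes (32.9%), of which 3200 had CKO above (16.4%) and 3211 had CKO below (16.5%). Libraries of the 2 genotypes were also about as far apart as replicates at the median gene. The chi-square of the median gene, relative to counting error alone, was 7.04 to 7.45 between the genotypes, 7.18 within CKO and 7.39 within fl/fl, over 13029 genes. The mean chi-square over the same genes was 75.6 to 85.2 between genotypes, against 19.9 within CKO and 22.8 within fl/fl. Abundant genes weigh most in this mean, so a single one can set it, and it does not count how many genes differ. This mean does not follow genotype alone, as the 2 CKO vehicle libraries were 95.1 apart by it. CKO vehicle replicate 1 lay 20.7 and 23.8 from the CKO libraries on NOX_6_18. CKO vehicle replicate 2 lay 21 and 19.1 from the fl/fl libraries on NOX_6_18. At the median gene there was no such grouping, with 8.01 between the CKO vehicle libraries and 7.12 to 7.91 for these other pairs. The abundant gene mt-Atp6, given below, was low in both CKO libraries on NOX_6_18 and in CKO vehicle replicate 1. It was high in both fl/fl libraries on NOX_6_18 and in CKO vehicle replicate 2. The mean without this gene was not computed.

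Among abundant genes far from 0 that did not pass was mt-Atp6, a mitochondrially encoded subunit of ATP synthase. It stood at 3976 and 3854 CPM in CKO against 23411 and 26670 CPM in fl/fl on NOX_6_18. On vehicle it stood at 4014 and 25135 CPM in the CKO libraries and at 4441 and 4735 CPM in fl/fl. The genotypes did not overlap on NOX_6_18, but the 2 CKO libraries on vehicle differed from each other about as much as the genotypes did on NOX_6_18. The log2 fold change of −2.68 ± 0.65 did not pass the test (edgeR adjusted p = 1); with only the 4 libraries compared in the fit, whose spread does not include those vehicle libraries, it did (adjusted p = 0.000119). Its exons overlap those of mt-Atp8 and mt-Co3. Of the 15 mitochondrially encoded genes measured, none passed the test, the list median was 0.01, and mt-Co3 had 23160 and 24400 CPM in CKO against 21393 and 22637 in fl/fl.

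Further genes with higher levels in both CKO libraries did not pass the test over all genes and are given as values. P2rx7, the ATP-gated ion channel that drives inflammasome activation in macrophages, had 30.6 and 32.7 CPM in CKO against 19.8 and 22.8 in fl/fl (log2 fold change 0.57 ± 0.13, edgeR adjusted p = 1). Sash3, an adaptor of lymphocyte receptor signalling, had 9.57 and 9.36 against 5.61 and 6.46 CPM. Jchain, which joins the chains of secreted IgA and IgM, had 30.2 and 26.0 CPM in CKO against 18.5 and 16.7 in fl/fl on NOX_6_18, and 26.3 and 24.1 against 12.4 and 12.4 CPM on vehicle, where it did pass (log2 fold change 1.02 ± 0.11, edgeR adjusted p = 0.0011). On NOX_6_18 the CKO libraries were the higher ones in each of these 3 genes. On vehicle the CKO libraries were the lower ones for Sash3, at 7.27 and 8.46 CPM against 9.05 and 10.3. For P2rx7 the genotypes overlapped on vehicle, at 19.3 and 21.9 CPM in CKO against 27.3 and 21.8 in fl/fl. Dlc1, a GTPase-activating protein, had 475 and 484 CPM in CKO against 359 and 368 in fl/fl on NOX_6_18, with a log2 fold change of 0.40 ± 0.09 (edgeR adjusted p = 1). On vehicle Dlc1 was higher in CKO by 0.62 ± 0.09 (edgeR adjusted p = 0.00563). Eif4e, the mRNA cap-binding initiation factor, had 22.0 and 22.6 against 8.86 and 7.73 CPM, and Hnrnpf, a splicing factor, had 134 and 115 against 44.8 and 38.4 CPM. Both had 2 unequal CKO libraries on vehicle, at 22.4 and 9.49 CPM for Eif4e and at 44.9 and 106 CPM for Hnrnpf. DESeq2 called P2rx7 (adjusted p = 0.0441), Jchain (0.00149) and Dlc1 (0.00149) on NOX_6_18. With only the 4 libraries compared, edgeR called Hnrnpf (adjusted p = 0.0132) and Eif4e (0.0204). Of 14 alternatives Hnrnpf and Dlc1 passed in 2 each.

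Pcdhga1, a protocadherin whose exons are shared with its gene cluster, had 7.04 and 3.79 CPM against 1.73 and 1.86, and B3galt1, a galactosyltransferase, had 10.98 and 5.30 against 2.90 and 3.23. In both of these the CKO replicates differed from each other about as much as the group means did. Of 14 alternatives Pcdhga1 passed in 1 and B3galt1 in 2. Nnt, the mitochondrial transhydrogenase that makes NADPH, is listed under 2 Ensembl identifiers; one had 5.77 and 7.81 CPM in CKO against 4.14 and 3.43 in fl/fl, and the other 6.18 and 5.71 against 7.87 and 9.25. Their sum was 11.95 and 13.52 CPM in CKO and 12.02 and 12.68 CPM in fl/fl, where the groups overlapped.

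Among genes with lower levels in both CKO libraries that did not pass, Zbtb20 came nearest to the threshold. Zbtb20, a zinc finger repressor abundant in liver, had 74.4 and 73.6 CPM in CKO against 123 and 114 in fl/fl on NOX_6_18 (log2 fold change −0.67 ± 0.09, edgeR adjusted p = 0.127). Its vehicle values were 113 and 121 CPM in CKO and 130 and 108 CPM in fl/fl, so the CKO libraries on NOX_6_18 were the lowest of the 8. It passed in 4 of 14 alternatives, with DESeq2 (adjusted p = 1.93e-10), with no filter (edgeR adjusted p = 0.00267), with only the 4 libraries compared (0.0301) and without the fl/fl vehicle libraries in the fit (0.0215). Rab11b, a small GTPase of recycling endosomes, had 30.9 and 30.5 CPM in CKO against 64.7 and 46.7 in fl/fl on NOX_6_18, and on vehicle it fell in CKO by 0.77 ± 0.13 on the log2 scale (edgeR adjusted p = 0.0129). Atp6v0c, a membrane subunit of the proton pump that acidifies lysosomes, had 64.6 and 69.7 against 110 and 105 CPM. Tmem173 (STING), the adaptor of cytosolic DNA sensing, had 15.1 and 19.5 against 25.2 and 27.8 CPM. In all 3 both CKO libraries lay below both fl/fl libraries on NOX_6_18, with edgeR adjusted p from 0.295 to 0.958. DESeq2 called all 3, with adjusted p of 1.17e-07 for Rab11b, 6.44e-08 for Atp6v0c and 0.0286 for Tmem173. Rab11b also passed in edgeR with no filter (adjusted p = 0.00991) and without fl/fl NOX_6_18 replicate 2 (0.0155), and Atp6v0c with no filter (0.00914) and with only the 4 libraries compared (0.0342).

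Gas2l1, which links actin and microtubules, had 19.1 and 22.5 CPM in CKO against 43.9 and 48.7 in fl/fl, a log2 fold change of −1.15 ± 0.20 (edgeR adjusted p = 0.478). Gas2l1 passed with DESeq2 (adjusted p = 3.87e-08), and in edgeR with no filter (0.00991) and with only the 4 libraries compared (0.0337). Nfat5, the transcription factor of the osmotic stress response, had 84.6 and 75.1 against 111 and 108 CPM. Rab3il1, an exchange factor for Rab GTPases, had 37.6 and 35.0 against 46.3 and 46.4 CPM. The ribosomal protein gene Rpl27a had 78.1 and 73.9 against 99.5 and 108 CPM. Mup19 and Mup17, secreted urinary proteins made by hepatocytes, belong to a family of near-identical genes, so their counts are uncertain. Mup19 had 10.7 and 8.496 CPM in CKO against 18.3 and 27.5 in fl/fl. DESeq2 called Nfat5 (adjusted p = 0.000157), Rpl27a (0.00115) and Mup19 (0.000136), which passed in no other alternative. Sept2, a septin of the cytoskeleton, is listed under 2 identifiers whose exons overlap. One had 3.92 and 0 CPM in CKO against 100.2 and 97.5 in fl/fl, and passed in 1 of 14 alternatives. The other had 122 and 122 CPM against 21.87 and 21.04. The 2 identifiers lay on opposite sides, and their sum was 125.9 and 122.1 CPM in CKO and 122.0 and 118.5 CPM in fl/fl.

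**Figure D3:**
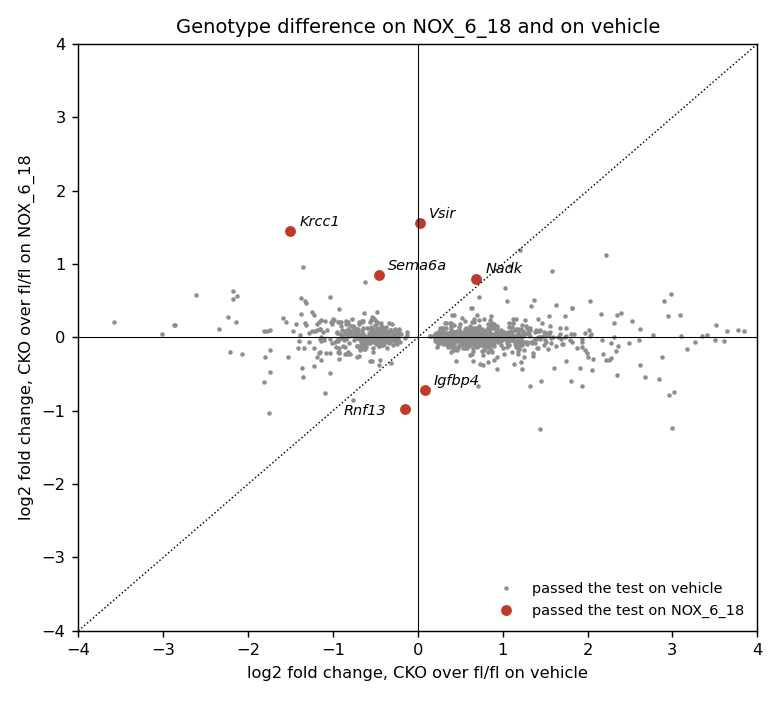
Log2 fold change of CKO over fl/fl on NOX_6_18 (vertical axis) against that on vehicle (horizontal axis), which share no library. Grey points are genes that passed the test on vehicle (42 of 1131 lie beyond the axes) and red points are 6 of the genes that passed on NOX_6_18; the grey points spread along the horizontal axis, with medians near 0 on the vertical one.

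As sets, the genes that differed by genotype on vehicle had medians near 0 on NOX_6_18. The 773 genes higher in CKO on vehicle (3.96% of those tested) had a median log2 fold change of 0.0023 on NOX_6_18, against 0.747 on vehicle, and 51% of them were above 0. Among these, 1 passed on NOX_6_18, which is Nadk (0.129%), and 32 had an unadjusted p under 0.05 (4.14%). The 358 lower in CKO on vehicle (1.83%) had a median of 0.0204 on NOX_6_18 against −0.643 on vehicle, and 56.1% were above 0. On NOX_6_18 3 of them passed, among them Sema6a and Krcc1, both in the opposite direction (0.838%), and 32 had an unadjusted p under 0.05 (8.94%). Over all genes tested 50% were above 0 on NOX_6_18, 0.0359% passed and 4.43% had an unadjusted p under 0.05. Of the 7 called genes 6 also passed the test of the difference between the treatments, all but Nadk. That test and the vehicle comparison rest on the fl/fl vehicle libraries that stood apart and have no value without them.

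The genes of named cell types and pathways were looked at in 41 lists with 663 distinct measured members. On NOX_6_18 none of these members was higher by the edgeR test and 1 was lower, Igfbp4, against 0.0359% called over all genes; DESeq2 called 2, Igfbp4 and Jchain. Unadjusted p was under 0.05 for 28 members (4.22%, against 4.43% of all genes), and the groups did not overlap for 227 (34.2%, against 32.9%). On vehicle 241 of the same members passed (36.3%, against 5.8%), and 154 passed the test of the difference between treatments (23.2%, against 2.45%). List medians ran from −0.0766 to 0.253 on NOX_6_18, against a median of 0.000119 over all genes, and from −0.676 to 3.49 on vehicle. These lists were drawn up with earlier results of these data known and hold many genes that had passed on vehicle.

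**Figure D4:**
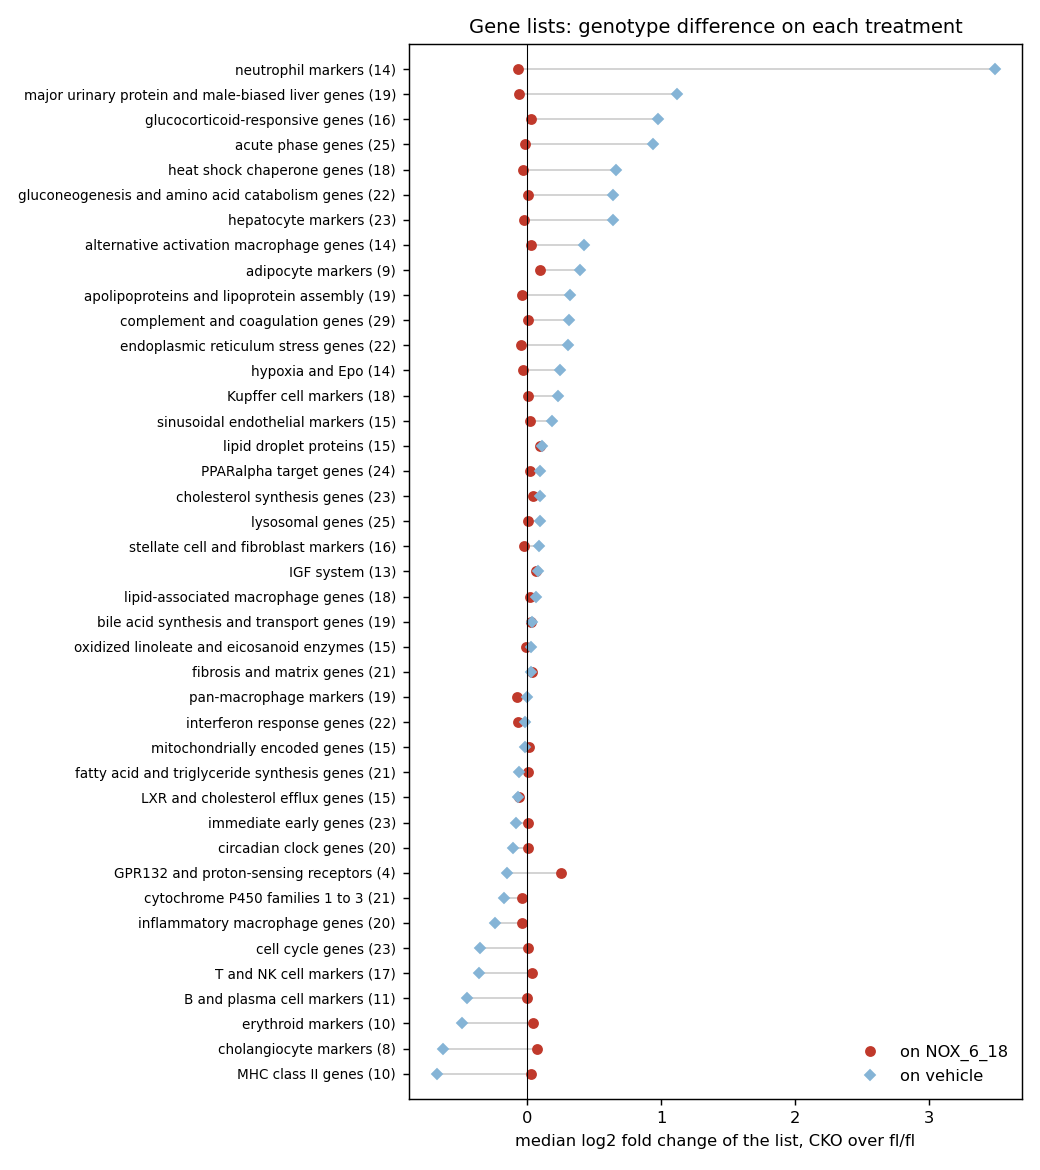
Median log2 fold change of CKO over fl/fl for each of the 41 gene lists, on NOX_6_18 (red circles) and on vehicle (blue diamonds), with the number of measured members in brackets. The red circles lie between −0.0766 and 0.253, and the blue diamonds between −0.676 and 3.49.

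Macrophage identity genes were near equal between the genotypes on NOX_6_18. The summed level of 19 pan-macrophage markers was 2198 and 2211 CPM in CKO against 2230 and 2220 CPM in fl/fl, with 0 called and a median log2 fold change of −0.08. Both CKO sums thus lay slightly below both fl/fl sums, and this median was the lowest of the 41 lists. Of the 19 members 6 lay below and 3 above, against 16.5% and 16.4% of all genes. Cd68, a lysosomal glycoprotein of macrophages, had 58.7 and 61.6 CPM in CKO against 64.5 and 68.1 in fl/fl, and Spi1, the transcription factor PU.1, had 34.2 and 35.3 against 38.2 and 40.6 (edgeR adjusted p = 1 for both). The 18 Kupffer cell markers summed to 3745 and 3729 CPM in CKO against 3741 and 3725 CPM in fl/fl, so the groups overlapped. Among them Clec4f, a lectin found on Kupffer cells, had 561 and 569 CPM against 563 and 568, Folr2 had 67.7 and 62.1 against 60.3 and 50.9, and Cd5l had 645 and 643 against 667 and 669. None of these Kupffer cell genes passed the test. Of 18 lipid-associated, 20 inflammatory and 14 alternative activation genes measured, 0 passed in each list, with medians of 0.02, −0.04 and 0.03. Trem2, a lipid receptor of macrophages in fatty tissue, had 6.84 and 6.00 CPM in CKO against 5.63 and 4.80 in fl/fl on NOX_6_18. On vehicle Trem2 fell in CKO by 1.22 ± 0.17 on the log2 scale (edgeR adjusted p = 0.00448).

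Antigen presentation genes of MHC class II gave 0 called of 10, with a median of 0.03. H2-DMa, which helps load peptides, had 20.4 and 21.2 CPM in CKO against 15.4 and 14.7 in fl/fl (log2 fold change 0.47 ± 0.12, edgeR adjusted p = 1), and its partner H2-DMb1 had 14.7 and 15.8 against 17.5 and 20.3. The partners thus lay on opposite sides, CKO above for one and below for the other, and the exons of H2-DMa overlap those of Brd2. Enzymes of oxidized linoleate and eicosanoid synthesis, which make ligands of GPR132 or related lipids, gave 0 called of 15. Their summed level was 370.2 and 376.9 CPM in CKO against 385.0 and 386.6 CPM in fl/fl. Alox5ap, the partner protein of 5-lipoxygenase, had 18.4 and 17.1 CPM against 21.8 and 21.9.

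**Figure D5:**
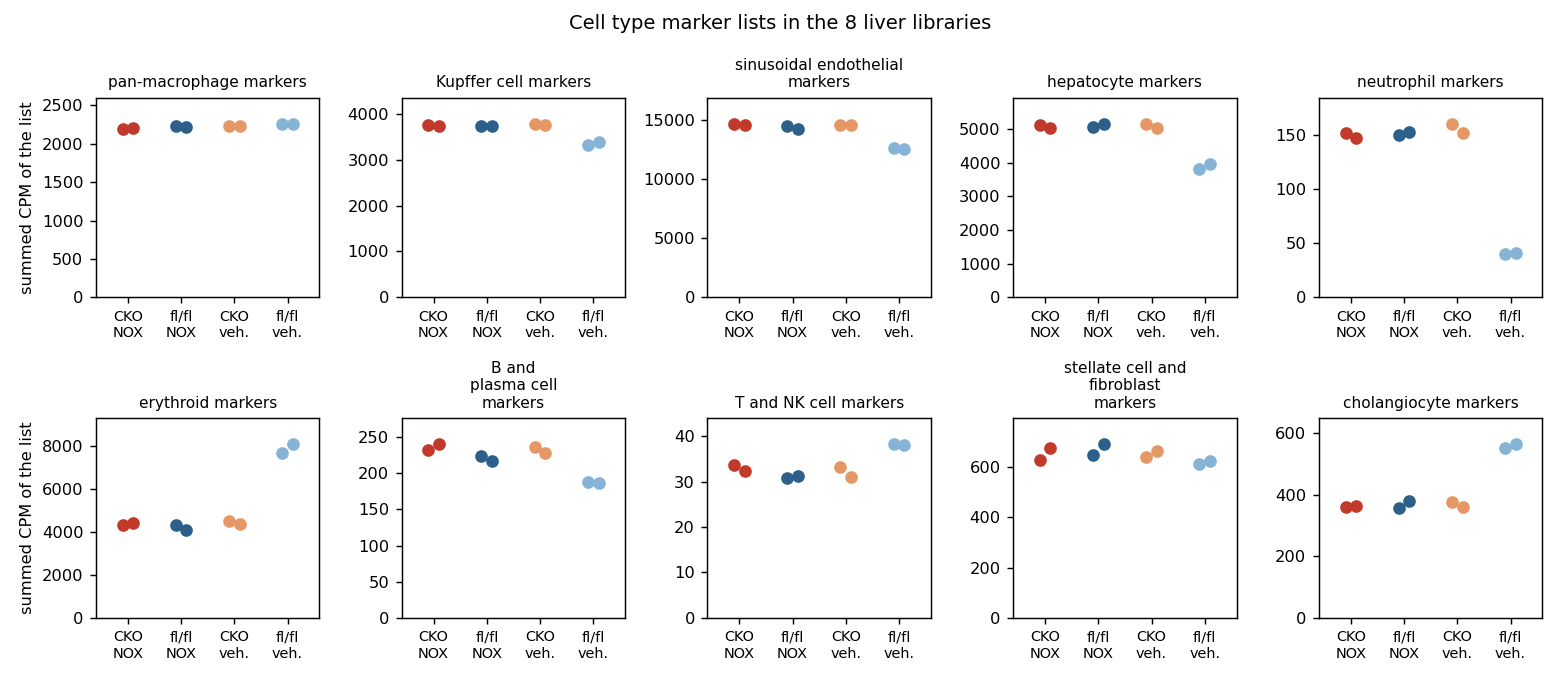
Summed CPM of 10 cell type marker lists (vertical axes, from 0) in each of the 8 liver libraries, 1 point per library. On NOX_6_18 the CKO and fl/fl points lie close together in every panel, whereas the fl/fl vehicle libraries stand apart in several, such as neutrophil markers at 39.94 and 40.78 CPM.

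Markers of other cell types also summed to similar levels in the 4 libraries. Hepatocyte markers summed to 5121 and 5051 CPM in CKO against 5079 and 5147 CPM in fl/fl, and neutrophil markers to 152.5 and 147.6 against 149.8 and 152.8 CPM. Both overlapped between the genotypes. Sinusoidal endothelial markers summed to 14660 and 14580 CPM in CKO against 14480 and 14250 CPM in fl/fl, and erythroid markers to 4323 and 4413 against 4340 and 4112 CPM. B and plasma cell markers summed to 232.5 and 240.2 CPM in CKO against 224.4 and 217.1 CPM in fl/fl, and T and NK cell markers to 33.73 and 32.26 against 30.76 and 31.19 CPM. For endothelial, B and plasma, and T and NK cells the CKO sums lay above the fl/fl sums, by less than the difference that the same lists showed from the fl/fl vehicle libraries. No member of these 6 lists, of 23, 14, 15, 10, 11 and 17 measured genes, passed the test on NOX_6_18. Ms4a1 (CD20), a B cell surface protein, had 1.89 and 2.24 CPM in CKO against 4.23 and 2.73 in fl/fl, whereas Jchain of the same list was higher in CKO. Whether the cell make-up has a part in the 7 called genes was not tested.

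Stellate cell and fibroblast markers (0 called of 16), cholangiocyte markers (0 of 8) and fibrosis and matrix genes (0 of 21) did not differ by the test either. Fibrosis and matrix genes were the list with the most members above, 9 of 21 with both CKO libraries above both fl/fl libraries and 5 of 21 below, against 16.4% and 16.5% of all genes. LXR and cholesterol efflux genes were the list with the most members below, 8 of 15, with 2 above, and of the oxidized linoleate and eicosanoid enzymes 6 of 15 lay below and 0 above. Col4a1, a chain of basement membrane collagen, had 441 and 428 CPM in CKO against 360 and 407 in fl/fl (log2 fold change 0.18 ± 0.07, edgeR adjusted p = 1).

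Lipid and sterol genes gave no call on NOX_6_18 in any of the lists on them. There were 0 called of 21 for fatty acid and triglyceride synthesis, 0 of 23 for cholesterol synthesis, 0 of 24 for targets of PPARalpha, 0 of 15 for lipid droplet proteins, 0 of 19 for bile acid genes, 0 of 19 for apolipoproteins and 0 of 15 for LXR and cholesterol efflux. Mvk, mevalonate kinase of cholesterol synthesis, had 5.73 and 5.87 CPM in CKO against 3.51 and 4.36 in fl/fl (log2 fold change 0.56 ± 0.18, edgeR adjusted p = 1). Ucp2, a mitochondrial carrier and PPARalpha target, had 155 and 127 CPM in CKO against 164 and 167 in fl/fl. Apoe, a lipoprotein ligand made by hepatocytes and macrophages, had 1617 and 1641 CPM in CKO against 1047 and 1627 in fl/fl; the 2 fl/fl libraries differed more than the group means. For Apoe the genotypes overlapped.

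The median RNA differences of hepatocyte metabolism lists were likewise near 0 on NOX_6_18. Gluconeogenesis and amino acid catabolism gave 0 called of 22 with a median of 0.01, against 15 of 22 higher on vehicle. Over all genes tested, 0.0359% passed on NOX_6_18 and 3.96% were higher in CKO on vehicle. Ass1, the urea cycle enzyme argininosuccinate synthase, had 131 and 124 CPM in CKO against 113 and 100.2 in fl/fl on NOX_6_18, and 123 and 128 CPM in CKO against 57.9 and 54.2 in fl/fl on vehicle. CKO was above fl/fl on both treatments, and the difference on vehicle was the larger (difference of log2 fold changes −0.91 ± 0.10, edgeR adjusted p = 0.00276). Ppargc1a, a coactivator of gluconeogenesis and mitochondrial genes, had 1.79 and 1.49 CPM in CKO against 3.10 and 2.36 in fl/fl. Major urinary protein and male-biased genes gave 0 called of 19, and Mup17 had 111 and 75.4 CPM in CKO against 209.8 and 231 in fl/fl.

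Stress and rhythm lists gave no call on NOX_6_18, where 0.0359% of all genes tested passed. Several of them had many calls on vehicle, where 3.96% of all genes tested were higher in CKO. The lists were drawn up with earlier results of these data known, so this contrast is in part built in. Heat shock chaperones gave 0 called of 18 with a median of −0.03 on NOX_6_18 and 14 higher with a median of 0.67 on vehicle. Acute phase genes gave 0 of 25 with a median of −0.01, against 16 higher with a median of 0.94, and glucocorticoid-responsive genes gave 0 of 16 with a median of 0.03, against 13 higher with a median of 0.98. Endoplasmic reticulum stress, immediate early, interferon response, circadian clock and cell cycle genes gave 0 called each, of 22, 23, 22, 20 and 23 measured. Manf, a protein secreted under endoplasmic reticulum stress, had 40.4 and 39.9 CPM in CKO against 47.2 and 47.2 in fl/fl on NOX_6_18, and 49.6 and 45.1 in CKO against 29.4 and 31.3 in fl/fl on vehicle. It lay below fl/fl in CKO on NOX_6_18 without passing the test (log2 fold change −0.23 ± 0.07, edgeR adjusted p = 1) and above on vehicle, where it passed (0.64 ± 0.07, edgeR adjusted p = 0.00154). Per3, a clock gene, had 26.3 and 27.9 CPM in CKO against 23.7 and 23.5 in fl/fl, and Ifit3b, an interferon-induced gene, had 14.3 and 13.5 against 11.7 and 11.2.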

How the data were processed

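RNA-seq libraries of the liver were compared, 2 per group, grouped by their titles. Per the labels' protocols, TRIzol was used for extraction, and total RNA went into a stranded KAPA library kit. For each library, the authors deposited raw, whole-number counts by Ensembl gene. The names HISAT, featureCounts 1.5.0, DESeq 1.8.3 and GRCm38 appear per the submitters' processing notes. No source used here gives the annotation release or whether counting used strand. Of 55421 Ensembl genes listed, 55240 (99.7%) were matched by identifier to GENCODE M21 (GRCm38); unmatched ones took at most 0.00727% of a library. Exons of 35.1% of the tested genes overlap another gene's exons, on either strand, which makes their counts uncertain.

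The 8 liver libraries shared 1 fit with edgeR 4.0.16 (R 4.3.3); 2 libraries alone estimate a spread poorly. It used TMM scaling, filterByExpr by group, 1 coefficient per group, the quasi-likelihood test and Benjamini-Hochberg adjustment over 19515 genes, with a threshold of 0.05. Standard errors were obtained from the fold change and the F statistic. TPM used GENCODE exon lengths. The code was tested on simulated data.

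Named genes were Gpr132, Lyz2, every called gene, the 10 rises and 10 falls of smallest p among genes whose groups do not overlap (higher group mean 5 CPM or more), and up to 4 called or 2 other members of each list. Some genes that the rule selects, 1 of the called genes among them, are not reported here. Other genes named were chosen after their values were seen. The members and lists were chosen with earlier results of these data known. Alternatives were RLE factors, library totals, mitochondrial genes left out, 2 other filters, DESeq2 1.42.0, voom of limma 3.58.1, a replicate block, a fold minimum, fewer libraries and each library left out.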

Additional observations from a re-analysis of the deposited data

Results flagged for a closer look

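For 21 genes named above, the genotype difference in liver (CKO over fl/fl) on NOX_6_18 differed from that on vehicle by the edgeR test of the difference itself, at an adjusted p under 0.05. All of these values rest in part on the fl/fl vehicle libraries, which stood apart from the other liver libraries. Over all genes tested, 478 passed this test (2.45%). Many of the named genes were chosen for a small p on NOX_6_18, which is a term of this contrast. Others came from lists drawn up with earlier results known, so the count of 21 follows in part from that choice. The values below are the log2 difference on NOX_6_18 minus that on vehicle.

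Of the genes that passed on NOX_6_18, it was 2.95 for Krcc1, 1.54 for Vsir, 1.31 for Sema6a, −0.81 for Igfbp4 and −0.83 for Rnf13. Krcc1 and Sema6a had CKO above fl/fl on NOX_6_18 and below on vehicle, whereas Vsir, Igfbp4 and Rnf13 passed the genotype test on NOX_6_18 and not on vehicle.

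The remaining genes did not pass the genotype test on NOX_6_18. It was 1.79 for Gpr132, 0.36 for Lyz2, 1.39 for the Nnt identifier that was higher in CKO, 0.33 for mt-Co3, 0.82 for Ifit3b, 0.63 for Per3, 1.52 for Trem2, 0.93 for Hba-a1 and 0.48 for Col4a1. It was −0.65 for Zbtb20, −0.29 for Cd5l, −0.91 for Ass1, −0.87 for Manf, −2.70 for Mup19, −1.09 for Igfbp2 and −4.23 for Mup17.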

How the results depend on the processing

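The count of 7 genes on NOX_6_18 was the same, with the same genes, under RLE size factors, library totals, mitochondrial genes left out, the stricter filter, limma-voom and the replicate block. It was 20 with no filter, 42 with DESeq2, 24 with only the 4 libraries compared, 12 without the fl/fl vehicle libraries (chosen after seeing the data), 2 with a fold minimum of 1 on the log2 scale (Vsir and Krcc1), and 13 to 22 with 1 of the 4 libraries left out, the lowest without fl/fl NOX_6_18 replicate 1 and the highest without CKO NOX_6_18 replicate 2. The cause of the higher counts was not tested. The 6 named genes passed in 14 of 14 alternatives other than the fold minimum.

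The count of list members called was 1, against 2 with DESeq2 and with only the 4 libraries compared, 0 with the fold minimum and 1 to 2 with 1 library left out (2 without fl/fl NOX_6_18 replicate 2). The test of the difference between treatments called 478 genes, against 829 with DESeq2, 208 with the fold minimum and 288 to 344 with 1 library left out, the lowest without CKO NOX_6_18 replicate 1. The vehicle count of 1131 was 341 with the fold minimum and 612 to 649 with any 1 of its 4 libraries left out. No called gene changed its direction, but the balance of the count on NOX_6_18 did. It was 5 higher and 2 lower in the main fit. With no filter it was 9 higher and 11 lower, with DESeq2 20 and 22, and with only the 4 libraries compared 12 and 12. Of the other named genes, log2 fold changes near 0 changed sign for Clec4f (0.0096 with library totals, 0.0012 without mitochondrial genes and 0.0020 with no filter) and Alb (0.0020 with library totals). With 1 library left out the range crossed 0 for Gpr4 (−0.033 to 0.28), Gpr65 (−0.014 to 0.15), Adgre1 (−0.061 to 0.034), Clec4f (−0.010 to 0.0076), Igf1 (−0.094 to 0.0037), Igfbp2 (−0.064 to 0.24), Igfbp3 (−0.071 to 0.0017) and Igfbp5 (−0.0064 to 0.15).

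Replicate numbers do not pair the samples here: deviations of same-numbered libraries correlated between −0.0274 and 0.00597. With the replicate block the counts were 7 on NOX_6_18, 918 on vehicle and 390 for the difference between them. With 2 libraries per group the spread is poorly known, and at the median SE of 0.21 small differences of low genes were not detectable.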

Other observations

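Several genes above took 1 of 2 levels across the 8 liver libraries, and this was counted after their values were seen. Among 10307 genes with a mean of at least 5 CPM over the 8 libraries, 251 fell into 2 bands, defined as a gap of at least 0.5 log2 units that is at least 3 times the width of the wider band, with at least 2 libraries in each. In 192 of them no group was split between the bands, and in 186 of those the fl/fl vehicle libraries alone stood apart. In 59 the 2 libraries of at least 1 group lay in different bands.

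The CKO and fl/fl libraries on NOX_6_18 lay in opposite bands in 10 genes. In 5 of these, among them Vsir, Igfbp4, Nadk and Krcc1, no group was split and the gene passed the genotype test. In the other 5, among them Eif4e, Il17rd, mt-Atp6 and Sept2, a vehicle group was split between the bands and the gene did not pass. The band rule and the test both favour close replicates, and a split group widens the spread that the test uses. This match between bands and calls is therefore in part built in.

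Sept2 is the clearest case of exchange between 2 identifiers of 1 symbol. Its first identifier had 107 and 15.9 CPM in the CKO vehicle libraries and 94.1 and 113 CPM in the fl/fl vehicle libraries, and its second had 16.7 and 113 CPM in CKO against 22.1 and 15.4 CPM in fl/fl. The sums on vehicle were 123.7 and 128.6 CPM in CKO and 116.1 and 128.8 CPM in fl/fl.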
